A study of Mus musculus with 15 samples.

Results

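The livers of mice with chemically induced tumors, with and without delivery of Gas1, were examined here for 31 genes that build, remodel, transport and take up plasma lipoproteins. The genes are linked by function, but they were chosen with earlier results of these data known. They are 13 apolipoproteins, the enzyme that edits Apob messenger RNA, 3 genes of the assembly of very low density lipoprotein (VLDL), 6 plasma enzymes and transfer proteins with their inhibitor, 4 receptors with their chaperone, and 4 sterol transporters. All 31 were on the array, which gave values for 22032 gene symbols, and they were read by 40 of its 55681 probes.

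RNA from livers of CD1 male mice was hybridized to 15 one-colour Agilent arrays, in 3 groups. Group C received saline in place of the carcinogen. Groups T and G received diethylnitrosamine (DEN, a liver carcinogen that is made reactive in hepatocytes) at 25 µg/g on day 15 after birth. Hydrodynamic gene delivery (HGD, the rapid injection of plasmid in a large volume into the tail vein, which carries it into liver cells) was given weekly from week 28 to week 34 with 50 µg of plasmid, as empty vector to groups C and T and as pcDNA3/CAG-HAGas1 to group G. The CAG promoter of that plasmid is active in most cell types and is not specific for tumor cells, and only part of the liver cells, near the blood vessels, takes up the plasmid. Animals were killed in week 35, whereas the labels give an age of 10 weeks. Group C had 4 arrays, group T had 5 and group G had 6, but 2 arrays of group C and 2 of group T carried the same RNA code. The spread between those arrays of 1 code (SD 0.145 log2 units in group C and 0.143 in group T over 7820 genes) was below that of every other pair of the same group (at least 0.290 and 0.231), so each such pair was averaged and counted as 1 mouse. This left 13 mice, of which 3 belonged to group C, 4 to group T and 6 to group G. On each array, 15707 to 29765 of 59305 spots were well above background, and the small number of arrays limits the precision. The sources used here give liver as the source of the RNA and no separation of tumor nodules from the tissue around them.

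Lipoproteins carry cholesterol and triglyceride through plasma as particles wrapped in apolipoproteins. The liver assembles VLDL around apolipoprotein B, secretes the apolipoproteins of high density lipoprotein (HDL), and takes remnants back up through receptors of the LDL receptor family. In plasma, lipases remove triglyceride from the particles, and phospholipid transfer protein moves phospholipid released from them onto HDL. Cholesterol that returns to the liver leaves it as bile acid or, through the Abcg5 and Abcg8 transporter, as cholesterol in bile.

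Libraries that stand apart bear on what follows. Mouse 2 of group T had a mean level of 19 acute-phase genes 2.43 log2 units above the group C mean, against 0.15, 0.21 and 0.53 in the other 3 mice of group T, from -0.14 to 0.25 in group C and from -0.41 to -0.23 in group G. Calls that were lost or gained without this mouse are given as such. Gas1 messenger RNA itself was between 6.31 and 6.67 log2 units in C mice, between 6.41 and 6.61 in T mice and between 6.49 and 6.79 in G mice, with no difference that passed the test (G against T 0.08, adjusted p = 0.765, limma). Whether its probe lies within the delivered sequence was not known here, so this does not check the labels of group G. The hepatocyte markers were high in every mouse, with all 10 well above background, but their summed signal was 637283 to 664125 (linear signal) in group C, 421924 to 592623 in group T and 461698 to 583168 in group G. These sums are given under quantile normalization only. Under median scaling Ttr and Ass1, the hepatocyte markers past the threshold in T against C, were above 0, at 0.18 and 0.49. In bulk liver, fewer cells of a type and less RNA per cell cannot be told apart.

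Pltp, which encodes phospholipid transfer protein, was the member that differed most between livers with and without DEN. Its probe matches chr2:164665022-164665081 of mm9 on the minus strand, and the first 30 bases of the probe are given to identify it.
Pltp probe: gaagctatacccgatttaattccagaatta

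The log2 signal of Pltp was 10.41, 10.50 and 10.30 in the 3 mice of group C. In the 4 mice of group T it was 8.03, 7.16, 7.64 and 7.33. Every mouse of group T lay more than 2 log2 units below the lowest mouse of group C. The difference was -2.86 (SE 0.338, 95% interval -3.60 to -2.13), a 7.27-fold lower signal with adjusted p = 0.00413 in limma, and the group T mean was 13.8% of the group C level. The lower level was present on both slides, at -3.12 on slide 1 and -2.72 on slide 2, and without mouse 2 of group T, at -2.74 with adjusted p = 0.0111. In the 6 mice of group G, Pltp ranged from 7.90 to 9.62 with a median of 9.21. The G values lay between the other groups except in mouse 4, whose 7.90 was below the highest mouse of group T. The mean of group G was 37.6% of the group C level. The rise from T to G was 1.45 (SE 0.286, 95% interval 0.83 to 2.07), or 2.73-fold, and did not pass the test (adjusted p = 0.0790). Of the mice left out in turn, mouse 1 of group T (adjusted p = 0.0425) and mouse 4 of group G (adjusted p = 0.0163) gave a call. So did 3 other settings, with bright probes only (adjusted p = 0.0358), with 15 separate arrays (adjusted p = 0.0150) and with slide as a term (adjusted p = 0.0386). Bright probes only left the values of Pltp unchanged and tested 10478 genes, those with a probe well above background on all arrays of at least 1 group. The fit of 15 separate arrays counts arrays of 1 RNA code as separate mice, so its calls here and below rest on repeated mice. The difference between G and C was -1.41 (SE 0.313, adjusted p = 0.0747), with no overlap between the mice of the 2 groups, and passed without mouse 4 (adjusted p = 0.0460) or mouse 6 (adjusted p = 0.0421) of group G and in the same 3 settings.

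Over all 31 genes, 3 passed the test between T and C (9.68%), against 2.37% of all genes tested, and all 3 were lower in T, against 1.2% of all genes: Pltp, Mttp and Lrpap1. Under median scaling 13 passed, against 13.1% of all genes, with 12 higher in T and only Pltp lower. Of all 2876 genes that passed there, 2861 were higher in T. The mice of T and C did not overlap for 10 of the 31 genes (32.3%), 5 higher and 5 lower in T, against 19.1% of all genes (10.3% higher and 8.72% lower). At an unadjusted p under 0.05 there were 11 members, 5 higher and 6 lower, against 20.2% of all genes. Lipg, whose probe was never well above background, is among the lower genes in both of these counts. The differences of the members were on both sides of 0, with 13 means higher and 18 lower in T and a median of -0.04 against 0.01 over all genes. In the authors' own values 11 were lower, with a median of 0.10, and under median scaling 3 were lower, with a median of 0.77. Their median size without regard to sign was 0.27 log2 units against 0.09 over all genes, of which most are dim on the array. Without mouse 2 of group T, 3 genes passed, namely Pltp, Mttp and Apoa1, against 0.908% of all genes, and 7 were below an unadjusted p of 0.05, against 17.6% of all genes.

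**Figure D1:**
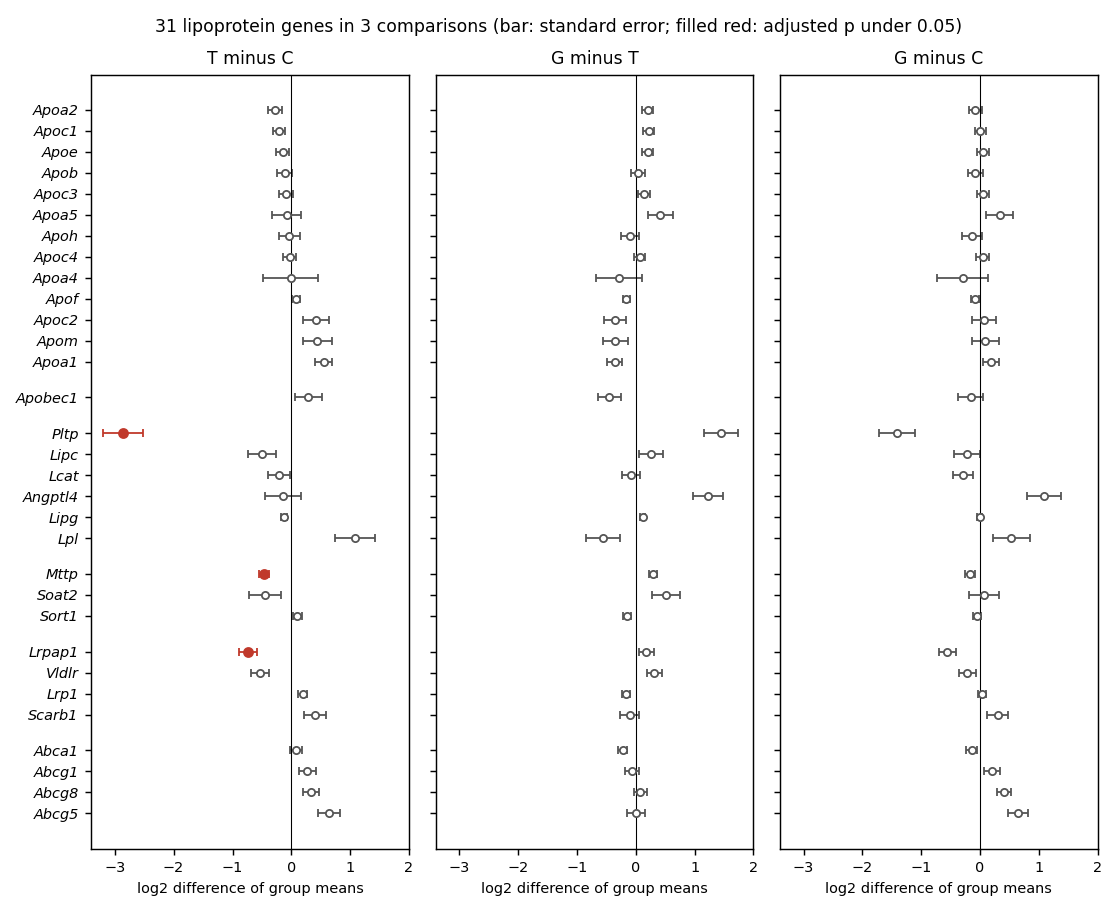
Log2 differences of the 31 lipoprotein genes, grouped by role, in 3 panels, T minus C, G minus T and G minus C (horizontal axes, log2 units); bars are standard errors and filled red points pass an adjusted p under 0.05. Pltp at -2.86 for T against C lies far from all other members, and the members that pass are Pltp, Mttp and Lrpap1, the directions of Mttp and Lrpap1 turning under median scaling (0.47 and 0.09).

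Mttp and Lrpap1 are helpers of lipoprotein traffic inside the cell rather than plasma proteins. Mttp encodes the large subunit of the microsomal triglyceride transfer protein, which loads lipid onto apolipoprotein B. Lrpap1 encodes the chaperone that keeps receptors of the LDL receptor family from binding ligands before they reach the cell surface. The Mttp probe matches chr3:137753868-137753927 (mm9, minus strand). Lrpap1 was read by a probe whose match spans chr5:35435982-35437504 (mm9, minus strand) across a splice junction, and by a second one near chr5:35434140-35434150. The exon structure under the probes was not analysed here. The first 30 bases of the Mttp probe and of the second Lrpap1 probe, and the whole of the junction probe of Lrpap1, were as follows.
Mttp probe: ttaagatgtttgtaaagagcagtggagaac
Lrpap1 junction probe: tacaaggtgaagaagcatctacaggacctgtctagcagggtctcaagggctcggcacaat
Lrpap1 second probe: ccgcaagggaacctcaagctacaaacttag

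Mttp was at 9.84, 9.90 and 9.85 log2 units in group C and at 9.30, 9.46, 9.42 and 9.42 in group T. Group C was tight and all 4 mice of group T lay below it. The difference of -0.46 (SE 0.0849, adjusted p = 0.0200), a 1.38-fold lower signal, was -0.42 on slide 1 and -0.46 on slide 2, but turned to 0.47 (adjusted p = 0.329) when arrays were scaled by their medians. The call was lost when mouse 1 or 2 of group C or mouse 3 or 4 of group T was left out, with adjusted p between 0.0548 and 0.0688. It was also lost with the processed signal (adjusted p = 0.268), the replicate block (adjusted p = 0.0752) and a plain t-test (adjusted p = 0.090). That t-test called 0 of 22000 genes between T and C. In group G, Mttp ranged from 9.55 to 9.93 with a median of 9.62. It was the only member whose mice did not overlap between G and T, against 3.1% of all genes. The difference of 0.29 (SE 0.0717) between G and T did not pass the test (adjusted p = 0.138).

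Lrpap1 was at 9.01, 9.15 and 8.69 in group C and at 8.37, 8.25, 8.20 and 8.02 in group T. The groups did not overlap, and the T mean was 59.9% of the C level. The difference was -0.74 (SE 0.151, adjusted p = 0.0300), a 1.67-fold lower signal, which turned to 0.09 (adjusted p = 0.885) under median scaling. Both probes were lower in T, the junction probe by -0.98 (adjusted p = 0.0410 over all probes) and the second by -0.50 (adjusted p = 0.0545). The call was lost without mouse 1 or 2 of group C or mouse 2, 3 or 4 of group T, with adjusted p between 0.0609 and 0.0990. It was also lost with the processed signal (adjusted p = 0.0701), cyclic loess (adjusted p = 0.0625), the replicate block (adjusted p = 0.0595) and a plain t-test (adjusted p = 0.150), which called 0 of 22000 genes. Lrpap1 in group G ranged from 8.07 to 8.65 with a median of 8.41, below every mouse of group C. Its difference between G and C, -0.56 (SE 0.140), did not pass the test (adjusted p = 0.109) and was 0.20 under median scaling.

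**Figure D2:**
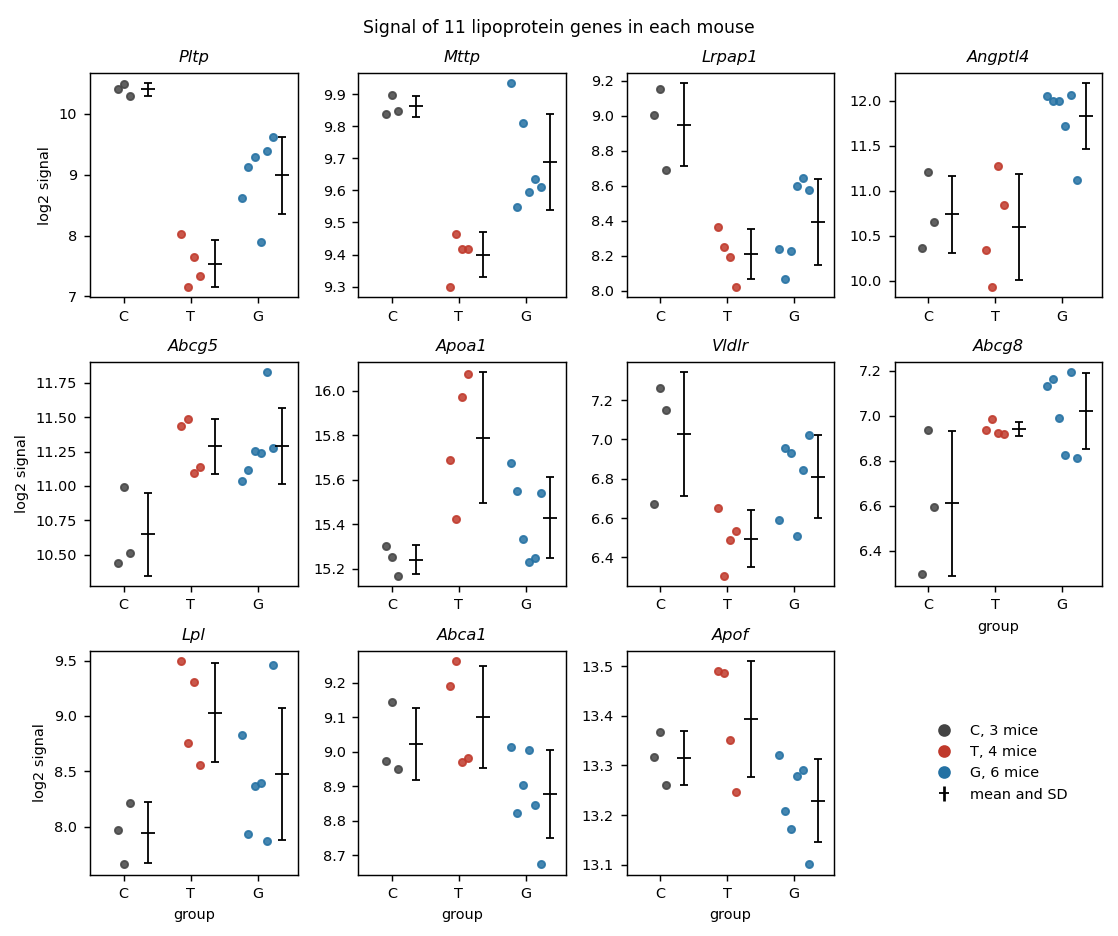
Log2 signal (vertical axes) of 11 lipoprotein genes in each mouse of groups C (3), T (4) and G (6); points are mice, and the black mark with its bar is the mean with the SD. Pltp falls from 10.30 to 10.50 in group C to 7.16 to 8.03 in group T, and 5 of the 6 mice of group G lie above all other mice for Angptl4, with the sixth at 11.13 within the range of groups C and T.

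The 13 apolipoproteins did not pass the test between any of the groups. Between T and C, 4 were higher and 9 lower, from -0.28 to 0.55, with a lowest adjusted p of 0.0657. The member with that value was Apoa1, the main protein of HDL and the activator of Lcat. Its probe, spotted 10 times on the array, matches chr9:46037921-46037980 (mm9, plus strand).
Apoa1 probe: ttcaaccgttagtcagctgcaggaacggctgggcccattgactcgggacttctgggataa

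Apoa1 was at 15.30, 15.25 and 15.17 in group C and at 15.69, 15.42, 15.97 and 16.07 in group T. All 4 mice of group T lay above group C. The difference was 0.55 (SE 0.146), or 1.46-fold, at 0.53 on slide 1 and 0.68 on slide 2, and it did not pass the test. Left out, mouse 2 of group T, the lowest of its group, gave 0.67 and a call (adjusted p = 0.0409). Apoa1 also passed in 5 further settings. These were the authors' own values (0.69, adjusted p = 0.0480), bright probes only (adjusted p = 0.0451), 15 separate arrays (adjusted p = 0.0102), slide as a term (adjusted p = 0.0361) and median scaling (1.67, adjusted p = 0.0251). In group G Apoa1 ranged from 15.23 to 15.67 with a median of 15.44, a difference of -0.36 from group T (adjusted p = 0.305) that turned no sign under any of the scalings.

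The other HDL apolipoproteins showed smaller differences. Apoa2, the second protein of HDL, was -0.28 in T against C with an adjusted p of 0.204, but 0.15 in the authors' own values. Apoc1, an inhibitor of lipoprotein uptake and of lipid transfer, was -0.21 and Apoe, the ligand through which remnants are taken up, was -0.15, and both were above 0 in the authors' values, at 0.17 and 0.24. These 3 genes are read by some of the brightest probes of the array, where quantile normalization leaves few distinct values: Apoc1 had the same value of 17.65 in mice of groups C and T. Apom, which carries sphingosine 1-phosphate on HDL, was 0.44 higher in T (adjusted p = 0.358). Apof, an inhibitor of lipid transfer, was at 13.32, 13.37 and 13.26 in C mice, at 13.49, 13.49, 13.35 and 13.25 in T mice, and from 13.10 to 13.32 in G mice, with a median of 13.24. The groups overlapped, and Apof was 0.08 higher in T than in C and -0.16 lower in G than in T (SE 0.0601, adjusted p = 0.341).

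Among the apolipoproteins of triglyceride-rich particles, Apob, the structural protein of VLDL, was at -0.12 in T against C (95% interval -0.41 to 0.17), and its 2 probes did not have the same sign (0.11 and -0.34). Apoc2, the activator of lipoprotein lipase, was 0.42 higher in T (adjusted p = 0.322). Apoc3, an inhibitor of triglyceride clearance, was at -0.09, again with 2 probes of unlike sign (-0.27 and 0.08). Apoa5, which favours lipolysis, was at -0.08 and 0.42 higher in G than in T (adjusted p = 0.501). Apoa4, an intestinal and hepatic apolipoprotein of chylomicrons and HDL, varied more between mice than any difference between groups, from 10.76 to 12.44 in group C alone. Apoc4 and Apoh (beta-2-glycoprotein, a phospholipid-binding plasma protein) were within 0.04 of group C. Apobec1, which edits Apob messenger RNA to the short form, was 0.29 higher in T than in C (adjusted p = 0.534) and at -0.45 in G against T (adjusted p = 0.431).

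Of the plasma enzymes beside Pltp, lipoprotein lipase differed most. Lpl hydrolyses the triglyceride of VLDL and chylomicrons and is low in healthy adult liver. It was read by 2 probes, at chr8:71425050-71425109 and chr8:71430267-71430326 (mm9, plus strand), the first of which is shown.
Lpl first probe: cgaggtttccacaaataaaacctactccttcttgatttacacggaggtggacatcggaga

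The log2 signal of Lpl was 7.97, 7.66 and 8.21 in group C and 9.50, 8.75, 9.31 and 8.56 in group T. All mice of group T were above all mice of group C, and the 2 probes gave 1.14 and 1.03. The difference of 1.08 (SE 0.342), or 2.12-fold, did not pass the test (adjusted p = 0.105). It passed in 3 of the 27 alternatives with a test: under median scaling (1.74, adjusted p = 0.0322), with the replicate block (1.16, adjusted p = 0.0365), and without mouse 6 of group G (adjusted p = 0.0477), a mouse that enters only through the shared estimate of the spread. Group G ranged from 7.87 to 9.45 with a median of 8.38 and overlapped both other groups. The difference between G and T was -0.55 (adjusted p = 0.522), at 0.11 within slide 1 and -0.92 within slide 2.

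Angptl4 was the member with the largest rise in mean from group C to group G. It encodes a secreted inhibitor of lipoprotein lipase and is a target of the fatty acid receptors of the PPAR family. Its probe matches chr17:33911880-33911939 (mm9, minus strand), with these first 30 bases.
Angptl4 probe: atggtgctgttgtaggtgctgtggatgcac

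Angptl4 was at 10.37, 11.21 and 10.65 in group C, and at 10.34, 9.94, 11.28 and 10.84 in group T. Groups C and T overlapped, with a difference of -0.14 (95% interval -0.81 to 0.53). In group G it ranged from 11.13 in mouse 6 to 12.07, with the other 5 mice at 11.72 or more. These 5 mice were above every mouse of the other groups, and mouse 6 was not. The difference was 1.23 (SE 0.262, 95% interval 0.66 to 1.80) between G and T, or 2.34-fold, at 1.27 on slide 1 and 1.19 on slide 2, and did not pass the test (adjusted p = 0.0962). It passed with bright probes only (adjusted p = 0.0481), with 15 separate arrays (adjusted p = 0.0291) and with slide as a term (adjusted p = 0.0455). Against group C it was 1.09 (SE 0.287, adjusted p = 0.127), or 2.12-fold. It passed there only with 15 separate arrays (adjusted p = 0.0363), where arrays of 1 RNA code count as separate mice. Both differences were above 0 under every scaling tried.

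The remaining lipases and Lcat gave small differences. Hepatic lipase, Lipc, which acts on remnants and HDL, was -0.49 in T against C (adjusted p = 0.273). Lcat, which esterifies the cholesterol of HDL, was at -0.21 (95% interval -0.61 to 0.20). The probe of endothelial lipase, Lipg, never rose well above background, and no level is given for it.

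Beside Mttp, the assembly of VLDL was represented by Soat2, which makes the cholesterol esters of VLDL, and Sort1, a sorting receptor that binds apolipoprotein B. Soat2 was at -0.45 in T against C (adjusted p = 0.401) and 0.51 higher in G than in T (adjusted p = 0.453). Neither Sort1 probe ever rose well above background.

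Vldlr, a receptor for triglyceride-rich particles and for Apoe, had a lower mean in T, as did the receptor chaperone Lrpap1. It was at 6.67, 7.26 and 7.15 in group C and at 6.65, 6.31, 6.49 and 6.54 in group T. The lowest mouse of group C lay just above the highest of group T. The difference of -0.53 (SE 0.153) did not pass the test (adjusted p = 0.0822). The only call was with 15 separate arrays (adjusted p = 0.0163), where arrays of 1 RNA code count as separate mice. Of its 2 probes, the one at chr19:27321104-27321163 (mm9, plus strand) was well above background on 2 of 4 arrays of group C, on 0 of 5 of group T and on 4 of 6 of group G. That probe had means of 6.39 in group C and 6.14 in group T, both near background, so no fold is given for it. The fit over all probes gave -0.25 for it and -0.82 for the second probe. In group G Vldlr ranged from 6.51 to 7.02 with a median of 6.89, at 0.31 above group T (adjusted p = 0.404).

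Scarb1, the HDL receptor that takes up cholesterol esters, was 0.40 higher in T than in C (adjusted p = 0.270), with 0.54 and 0.18 from its 2 probes, the second of which had values on only 9 arrays. Lrp1, a remnant receptor, was 0.19 higher (adjusted p = 0.166), the mean of a probe at 0.34 and a dim one at 0.04. The Lrp1 difference was -0.08 under scaling of the processed signals by the 75th percentile.

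The means of the 4 sterol transporters were all higher in T than in C, by 0.08 to 0.64, and none passed the test. Under median scaling Abca1, Abcg5 and Abcg8 passed, as did 13.1% of all genes, of which 2861 of 2876 were higher in T. Abcg5 and Abcg8 form 1 transporter for the secretion of sterols into bile. In the RefSeq annotation of GRCm38.p6 an annotated start of each gene lies 110 bases from that of the other on chromosome 17, facing away from it, and the windows from 250 bases before to 50 after these starts share 209 bases. Abcg8 has a second annotated start, with its window at chr17:84676052-84676351 (plus strand), which shares none of them. The Abcg5 window (chr17:84682962-84683261, minus strand) is shown because both of these starts lie within it, with the shared bases in capitals.
Abcg5 start window: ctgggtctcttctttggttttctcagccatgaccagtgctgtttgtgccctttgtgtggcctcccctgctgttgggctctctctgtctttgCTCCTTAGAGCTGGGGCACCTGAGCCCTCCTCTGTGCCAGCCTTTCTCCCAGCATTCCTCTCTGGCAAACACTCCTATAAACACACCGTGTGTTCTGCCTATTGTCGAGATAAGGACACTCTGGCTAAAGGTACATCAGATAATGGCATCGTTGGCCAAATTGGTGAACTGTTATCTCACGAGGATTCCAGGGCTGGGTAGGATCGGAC

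Abcg5 was at 10.44, 10.99 and 10.51 in C mice and at 11.43, 11.48, 11.09 and 11.14 in T mice, and ranged from 11.03 to 11.83 in G mice with a median of 11.25. Every mouse of groups T and G was above every mouse of group C. The difference from C was 0.64 (SE 0.181, adjusted p = 0.0785) in T and 0.64 (SE 0.168, adjusted p = 0.123) in G, or 1.56-fold in each. In T it passed without mouse 5 of group G (adjusted p = 0.0421), under median scaling (adjusted p = 0.0251) and with 15 separate arrays (adjusted p = 0.0202). In G the only call was with 15 separate arrays (adjusted p = 0.0338), where arrays of 1 RNA code count as separate mice. Between G and T, Abcg5 differed by 0.003 with a 95% interval of -0.33 to 0.34. Abcg8 was at 6.30, 6.94 and 6.60 in C mice and at 6.94, 6.99, 6.92 and 6.92 in T mice, and ranged from 6.81 to 7.19 in G mice with a median of 7.06. The highest mouse of group C reached into the other groups. Its differences from C were 0.33 in T (adjusted p = 0.186) and 0.41 in G (SE 0.123, adjusted p = 0.172). The probe of Abcg8 was well above background on 3 of 4 arrays of group C and on all others.

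Abca1, which loads lipid onto apolipoprotein A1, was at 8.97, 9.14 and 8.95 in C mice, at 9.19, 9.26, 8.97 and 8.98 in T mice, and from 8.67 to 9.01 in G mice, with a median of 8.88. The groups overlapped, and the difference of -0.22 between G and T (SE 0.0805) did not pass the test (adjusted p = 0.335). Abcg1, which exports cholesterol to HDL, was 0.27 higher in T than in C (adjusted p = 0.335).

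The start windows were searched on both strands for exact copies of binding motifs. Sites that depart from these strings in any base were not counted, so a window without a match can still hold a site. RefSeq windows (GRCm38.p6, 300 bases each) were found for 21 of the 31 genes, in 28 windows. None held the direct repeat of LXR, the inverted repeat of FXR, the direct repeat of HNF4 and PPAR, the HNF4 site CAAAGTCCA or the D-box TTATGTAA, which were present in 0.0152%, 0.00913%, 0.0396%, 0.475% and 0.938% of all 32851 windows. The E-box CACGTG, present in 7.15% of all windows, was found in windows of Abca1 and Apoa5. The core site TGACCT of nuclear receptors, which is part of the longer repeats and present in 16.3%, was found in those of Apoa2, Apoc2, Apoc4, Apoh and Lipc. The Pltp window (chr2:164857659-164857958, minus strand) held no exact copy of any of these and is given for the gene with the largest difference.
Pltp start window: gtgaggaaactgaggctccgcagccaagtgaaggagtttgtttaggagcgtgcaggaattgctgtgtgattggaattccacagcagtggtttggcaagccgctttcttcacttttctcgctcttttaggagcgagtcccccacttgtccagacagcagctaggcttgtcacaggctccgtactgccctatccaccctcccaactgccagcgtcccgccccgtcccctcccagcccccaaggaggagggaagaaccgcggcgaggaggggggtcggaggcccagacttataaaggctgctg

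Delivery of Gas1 was compared with empty vector in DEN-treated mice (G against T). None of the 31 genes passed the test in limma, against 0.132% of all genes, nor a plain t-test. In limma 14 were below an unadjusted p of 0.05 (8 higher and 6 lower in G), against 10.8% of all genes. The 3 with the smallest adjusted p were Pltp (0.0790), Angptl4 (0.0962) and Mttp (0.138), and all 3 were higher in G. The median difference was 0.04 with a median size of 0.20 log2 units, against -0.01 and 0.06 over all genes. Without mouse 2 of group T, 5 genes were below an unadjusted p of 0.05, 3 higher and 2 lower, against 8.3% of all genes. Comparisons of T with C and of G with T share the mice of group T. Beside Pltp and Mttp, the unadjusted ones with higher means in G were Angptl4, Vldlr, Soat2, Apoc1 (0.22, adjusted p = 0.409), Apoe (0.20, adjusted p = 0.452) and the dim Lipg. Apoc1 and Apoe were below 0 under median scaling, at -0.14 and -0.03. The lower ones were Apoa1, Abca1, Apof, Apobec1, Lrp1 (-0.17, adjusted p = 0.348) and the dim Sort1.

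Group G was also compared with group C, which differs from it in both DEN and Gas1. None of the 31 genes passed the test in limma, against 0.427% of all genes, nor a plain t-test. At an unadjusted p under 0.05 there were 6, against 13.3% of all genes: Abcg5, Abcg8 and Angptl4 higher in G, and Pltp, Lrpap1 and Mttp lower. Pltp, Lrpap1 and Abcg5 did not overlap between the mice of G and C, against 5.95% of all genes. Mttp was at -0.17 (SE 0.0786, adjusted p = 0.372), or 88.7% of the group C level, and at 0.67 under median scaling.

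**Figure D3:**
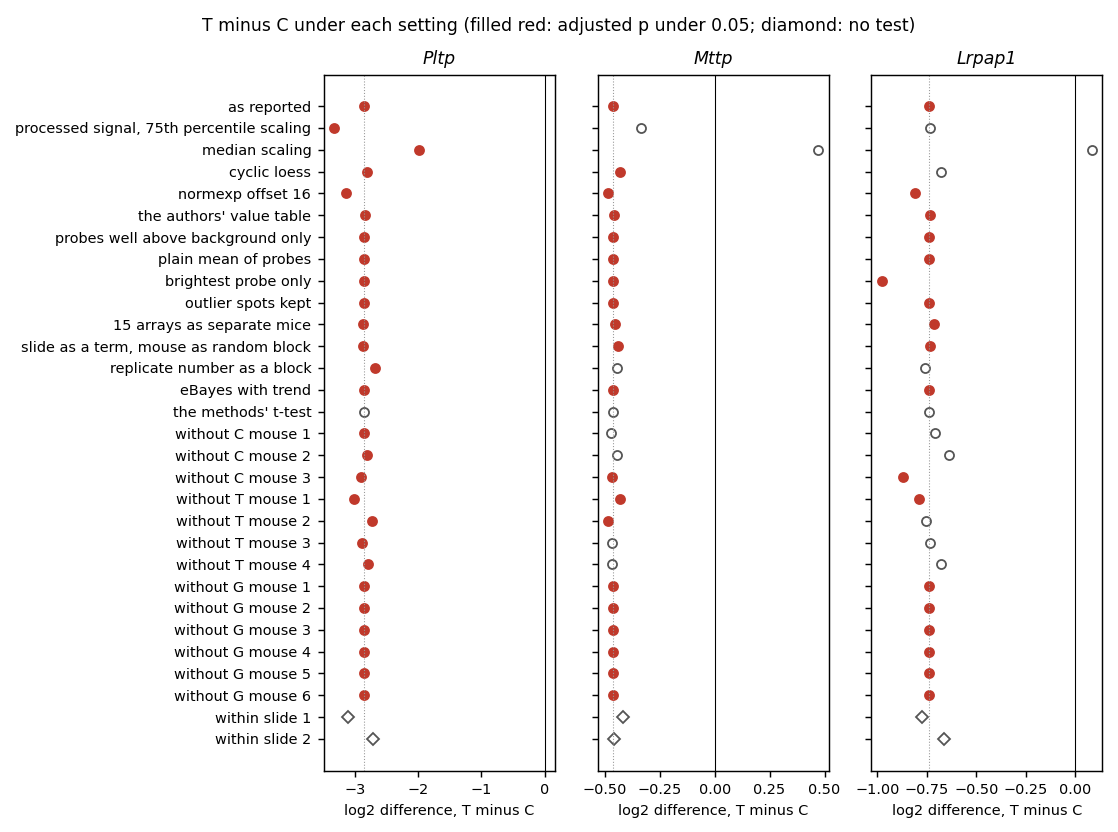
Log2 difference of Pltp, Mttp and Lrpap1 between T and C (horizontal axes) under each way of processing the arrays, with each mouse left out, and within each slide; filled red points pass an adjusted p under 0.05, open circles do not, and diamonds have no test. Pltp stays between -3.33 and -1.99 for T against C, while Mttp and Lrpap1 reach 0.47 and 0.09 under median scaling. The row labelled the methods' t-test is the plain t-test.

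Genes outside the 31 that act in the same processes were taken from lists of receptors, lipolysis, VLDL secretion, HDL remodelling, transcription factors and their targets, the clock and the acute phase. Of 126 such genes, 5 were higher and 10 lower in T than in C past the threshold, against 2.37% of all genes in either direction. Between G and T, 1 was higher, against 0.132% of all genes. Between G and C, 3 were higher and 1 lower, against 0.427% of all genes. Their median difference between T and C was 0.03, against 0.01 over all genes. Of the 15 that passed between T and C, 5 still passed without mouse 2 of group T (Acot1, Dbp, Nceh1, Nr1d1 and Scd1), with adjusted p from 0.0522 to 0.101 in the 10 others. Under median scaling 4 still passed (Dbp, Nr1d1, Nr1d2 and Tef), with the processed signal 2 (Dbp and Scd1), with cyclic loess 8 and in the authors' own values 15. In the 6 targets of LXR (the oxysterol receptor) that were not members, Lpcat3, which remodels the phospholipids of membranes and VLDL, fell by 0.61 (adjusted p = 0.0212), and Scd1, the desaturase that makes monounsaturated fatty acids, fell by 2.20 (adjusted p = 0.0112). Of the members, 8 are in this list, among them Pltp, which was lower, and Abcg5 and Lpl, whose means were higher. Lpcat3 was at 0.33 (adjusted p = 0.562) and Scd1 at -1.18 (adjusted p = 0.0868) under median scaling, and without mouse 2 of group T the call of Lpcat3 was lost (adjusted p = 0.0557).

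PPAR alpha, the fatty acid sensor of hepatocytes, has Angptl4 and Vldlr among its targets, and the other 13 targets of the list had a median of -0.58 in T against C and of 0.66 in G against T, turning to 0.12 in T against C under median scaling. Past the threshold, Pdk4, which restrains glucose oxidation, fell by 1.84 (adjusted p = 0.0400), Acot1, an acyl-CoA thioesterase, fell by 1.76 (adjusted p = 0.0229), Ehhadh, an enzyme of peroxisomal oxidation, fell by 1.33 (adjusted p = 0.0477) and Plin2, a coat protein of lipid droplets, fell by 1.07 (adjusted p = 0.0268). Without mouse 2 of group T, the calls of Pdk4 (adjusted p = 0.0882), Ehhadh (adjusted p = 0.101) and Plin2 (adjusted p = 0.0619) were lost and that of Acot1 was not (adjusted p = 0.0342). Under median scaling all 4 were lost, at -1.14 for Pdk4, -0.94 for Acot1, -0.33 for Ehhadh and -0.08 for Plin2. All 13 had higher means in G than in T, with none past the threshold, and without mouse 2 of group T the medians were -0.41 and 0.47. Ppard, another receptor of the family, fell by 1.40 in T (adjusted p = 0.0200) and was at -1.63 in G against C (adjusted p = 0.0257). Its call in T was lost without mouse 2 of group T (adjusted p = 0.0522), and both were lost under median scaling, at -0.64 and -0.92. Under that scaling 0 of all genes passed between G and C. Hnf4a was at 0.37 in T against C (adjusted p = 0.106).

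In the other lists of lipid handling, the genes that passed between T and C were 1 of 11 in lipolysis (Lipa), 2 of 17 in VLDL secretion (Cideb and Plin2, named above), 1 of 17 in HDL remodelling (Nceh1) and 1 of 16 in uptake (Dab2). Of all genes tested, 2.37% passed. Lipa, the lysosomal acid lipase that degrades the lipid of lipoproteins taken up, fell by 0.94 (adjusted p = 0.0274) and was at 0.04 under median scaling and at -0.95 without mouse 2 of group T (adjusted p = 0.0571). Cideb, which promotes the lipidation of VLDL, fell by 0.50 (adjusted p = 0.0331) and was at 0.53 under median scaling and at -0.42 without mouse 2 (adjusted p = 0.0661). Nceh1, a cholesterol ester hydrolase, fell by 0.46 in T (adjusted p = 0.0112) and was 0.50 higher in G than in T (adjusted p = 0.00615), the only gene of the lists past the threshold in that comparison. Both Nceh1 calls held without mouse 2 (adjusted p = 0.0286 and 0.0338). They were lost under median scaling, at -0.03 (adjusted p = 0.925) and 0.46 (adjusted p = 0.517), and with the processed signal (adjusted p = 0.0645 and 0.232). Dab2, an endocytic adaptor of the LDL receptor family, was 0.43 higher in T (adjusted p = 0.0420), with the call lost without mouse 2 (adjusted p = 0.0792) and under median scaling (adjusted p = 0.0562). Those with large differences short of the threshold were Sar1b, needed for export of large particles from the endoplasmic reticulum (-0.65, adjusted p = 0.0579), Pnpla3 (-0.88, adjusted p = 0.0823) and Cd36, a fatty acid transporter (-0.71, adjusted p = 0.138).

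Clock genes and acute-phase genes were read beside these. Of 16 clock genes, 4 rose in T, against 1.18% of all genes: Dbp (3.71, adjusted p = 0.0199), Tef (1.52, adjusted p = 0.0362), Nr1d1 (0.97, adjusted p = 0.0224) and Nr1d2 (0.96, adjusted p = 0.0410). Without mouse 2 of group T, the calls of Tef (adjusted p = 0.0829) and Nr1d2 (adjusted p = 0.0903) were lost. Dbp, Nr1d1 and Tef were also higher in G than in C, at 4.29, 1.49 and 1.68, with adjusted p of 0.0257, 0.0224 and 0.0423. Under median scaling they were at 4.85, 1.80 and 2.52 without a call (adjusted p = 0.0711 for each). In that setting 0 of 22032 genes passed between G and C, so the lost calls do not single out these genes. The hour of killing is not given in the sources used here. The 19 acute-phase genes had a median of 0.66 in T against C, which was 0.17 without mouse 2, with none past the threshold. Saa1 and Saa2, acute-phase apolipoproteins of HDL, were at 2.21 (adjusted p = 0.265) and 2.17 (adjusted p = 0.198), and Lcn2 at 2.62 (adjusted p = 0.239). Saa1 reached 18.40 in mouse 2 of group T, against 12.39, 12.80 and 14.35 in the other 3. The part of the clock and acute-phase differences in those of the lipoprotein genes was not tested.

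**Figure D4:**
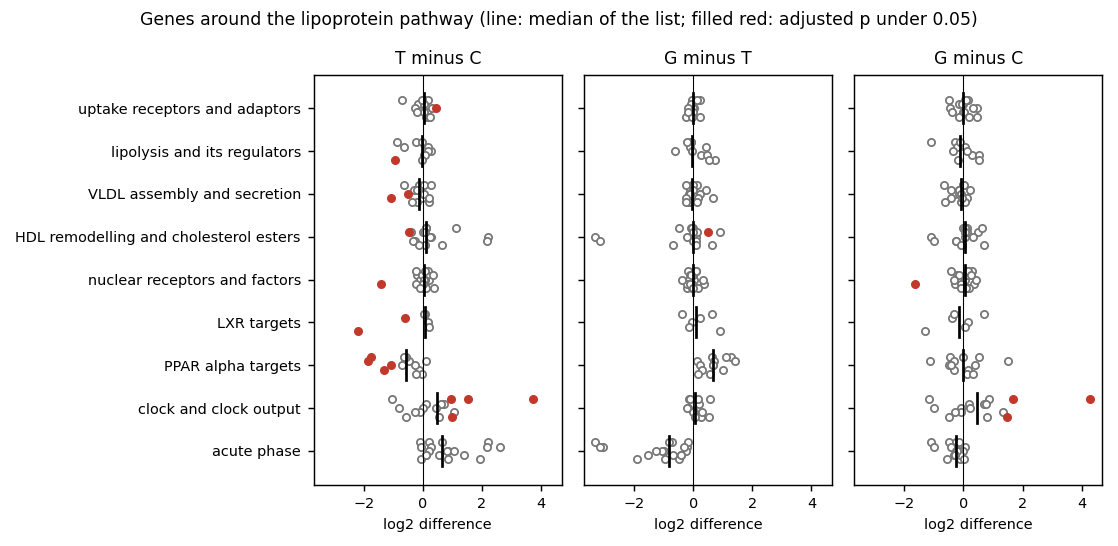
Log2 differences (horizontal axes) of the genes outside the 31 members in each list of lipoprotein metabolism and its regulation, in 3 panels, T minus C, G minus T and G minus C; each point is a gene, filled red where the adjusted p is under 0.05, and the thick vertical lines are list medians. The PPAR alpha targets have a median of -0.58 for T against C, which is 0.12 under median scaling, and of 0.66 for G against T.

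Cell type markers were read beside these values. Of 10 hepatocyte markers, 2 fell in T, against 1.2% of all genes. They were Ttr (mean 16.83 in C and 15.82 in T, adjusted p = 0.00425) and Ass1 (-0.60, adjusted p = 0.0112). The median of the 10 was -0.33, and Ttr and Ass1 were above 0 under median scaling (0.18 and 0.49). Ttr did not pass in the authors' own values (-0.61, adjusted p = 0.106). The summed signal of 7 adipocyte genes was 92268 to 114072 in group C, 37617 to 88532 in group T and 65686 to 97544 in group G, but of these genes only Adipor2 and Car3, which liver also expresses, were well above background on all 15 arrays, whereas Lep was so on 0, Plin1 on 1, Retn on 3 and Adipoq on 4. That of 5 erythroid genes was 8017 to 13678 in group C, 16377 to 21385 in group T and 9660 to 37227 in group G. Of 11 macrophage genes, Emr1 was higher in T (0.31, adjusted p = 0.0267, and 0.0553 without mouse 2) and Marco was at 0.83 (adjusted p = 0.173), and the summed signal overlapped between groups C (2229 to 3280) and T (2693 to 3518). Adipor2 was the adipocyte gene past the threshold (-0.61, adjusted p = 0.0322, and 0.0511 without mouse 2) and was at 0.51 under median scaling. The summed signal of 9 stellate cell genes was 6291 to 10342 in group C, 3556 to 6807 in group T and 1725 to 8094 in group G, with a median difference of -0.30 between T and C. The sums of 7 bile duct genes (637 to 684 in C, 576 to 632 in T) and of 9 pancreas genes (833 to 875 in C, 876 to 1320 in T) did not overlap between these groups. In group G the sums were 500 to 771 and 821 to 894, which overlapped both other groups. Of these genes, only Spp1, Ctrb1 and Amy2a5 were well above background on all 15 arrays. Krt7 and Epcam were so on 4 each, Cftr on 3, and Prss1, Cpa1 and Pnlip on 0. Of the 8 enterocyte genes, 5 were well above background on no array. No gene of the endothelial, stellate, bile duct, lymphocyte, erythroid, enterocyte or pancreas lists passed between T and C. The part of these cell types in the differences of the lipoprotein genes was not tested.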

How the data were processed

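Per the labels, total RNA of mouse liver was labelled with Cy3 and hybridized to 15 one-colour Agilent arrays on 2 slides, each slide holding all 3 groups. The labels name the TRIZOL method and the study's methods a spin-column kit for the RNA. For every array the authors deposited its scanner file, made with Agilent Feature Extraction 10.7.3.1, with spot intensity on a linear scale. They also deposited a table of log2 values, background-corrected and quantile-normalized per the methods, which was used as an alternative. Gene values rebuilt here differed from that table by a median of 0.00268 log2 units, and 99.0% were within 0.05. The deposited files hold no comparisons of the authors' own that were used here, and 0 columns of values were left without a sample.

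Mean spot intensity was corrected with normexp (offset 50) against the background median, taken to log2 and quantile-normalized over 59305 spots, control spots left out. Between 218 and 3692 spots per array with outlier marks were left out. Spots of a probe were averaged, probes of a gene were each centred on their mean and then averaged under the gene symbol of the array's design, and arrays of 1 RNA code were averaged. The 3 groups were fitted together in limma 3.58.1 (R 4.3.3, eBayes), with Benjamini-Hochberg adjustment over 22032 genes and a threshold of 0.05. The spread is that between mice. Probe positions (mm9) and sequences are those of the array's files. Of the 31 genes, 22 had 1 probe and 9 had several. Of the 40 probes, 33 were well above background on all arrays, 4 on none and 3 on some.

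The 31 genes, the lists and the tests were chosen with earlier results of these data known. All members are named. Those past the threshold in any comparison and the 8 others with the smallest unadjusted p are given in full, and of the other lists the genes past the threshold and the 2 with the largest difference between T and C. Adgre1 was read under its older symbol Emr1 and Angptl8 as Gm6484, and Ciart, Hbb-bt and Torsin1a had no value. Alternatives were the processed signal scaled by the 75th percentile, median scaling, cyclic loess, a normexp offset of 16 and the authors' table. Others were bright probes only, other ways of joining probes, outlier spots kept, 15 separate arrays and slide as a term. The rest were the replicate number as a block, a trend in eBayes, a plain t-test, and leaving out each mouse. Bright probes only kept probes well above background on all arrays of at least 1 group, which left 10478 genes. The plain t-test used pooled variance and Benjamini-Hochberg adjustment. For the arrays the study's methods name the multtest package, which was not run here. The scripts were tested on simulated data.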

Additional observations from a re-analysis of the deposited data

Results flagged for a closer look

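In groups of 4 to 10 mice, a mouse was singled out where its gap to the nearest other mouse was a large part of the range of its group (Dixon's test). This held for 6 of 62 sets of 1 gene in 1 group, and chance gives about 1 in 20. Mouse 2 of group T, in which the acute-phase genes were high, had the lowest Apoe of its group at 17.43 log2 units against 17.92 in the nearest mouse, and the highest Lrp1 at 8.74 against 8.51. In group G, mouse 5 had the highest Abcg5, at 11.83 against 11.27, and the highest Scarb1, at 9.05 against 8.48. Mouse 6 of group G had the highest Apoc2, at 15.24 against 14.65, and the lowest Angptl4, at 11.13 against 11.72.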

How the results depend on the processing

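Of 27 alternatives with a test, the lower Pltp in T than in C passed in all but the plain t-test (adjusted p = 0.0691), where no gene passed, with differences from -3.33 to -1.99. Over the single genes tested, 361 of 405 values kept their direction and side of the threshold, 17 lost and 24 gained a call, and 3 reversed: under median scaling, Mttp (0.47) and Lrpap1 (0.085) in T against C and Lrpap1 (0.20) in G against C. Median scaling moved the median of all genes by 0.12 in T against C. Relative to this, Mttp was at 0.35 and Lrpap1 at -0.03. It also turned the sign of 15 of the 31 members in T against C. The processed signal moved that median by -0.40. The cause was not tested. The 3 members past the threshold between T and C became 1 with the processed signal, against 0.259% of all genes. They became 13 with median scaling (12 of them higher in T), against 13.1%, and 6 with 15 separate arrays, against 8.85%. With the plain t-test they became 0 (9 unadjusted), and 1 to 4 when a mouse was left out. The number was 1, only Pltp, without mouse 1 or 2 of group C or mouse 3 or 4 of group T. The 0 members between G and T became 2 with bright probes only (Pltp and Angptl4), against 0.764% of the 10478 genes tested there. They became 2 with 15 separate arrays (1.22% of all genes), 2 with slide as a term (0.34%), and 0 to 1 when a mouse was left out. For G against C they became 1 with bright probes only, against 1.54% of the genes tested there. They became 3 with 15 separate arrays (1.53% of all genes), 1 with slide as a term (0.799%), and 0 to 1 when a mouse was left out. Deviations of same-numbered mice from their group means had correlations from -0.315 to 0.257, for numbers 1 to 3. No pairs of unlike number were set beside them, so this does not settle whether the numbers pair mice. With the replicate block, 2 members passed between T and C, where Lpl was called (adjusted p = 0.0365) and Mttp and Lrpap1 were not, and 0 in the other comparisons. Over all genes, the 523 calls between T and C became 57 with the processed signal and 2876 with median scaling (2861 higher in T, against 259 of the 523). They became 186 with cyclic loess, 1949 with 15 separate arrays, 814 with slide as a term and 278 with the block. They became 0 with the plain t-test (3827 unadjusted), and 95 to 746 without a mouse. The 29 between G and T ranged from 3 to 268 over the alternatives and the 94 between G and C from 0 to 338. Probes of Lipg and Sort1 were never well above background, so differences of these genes were not detectable.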
